A study of Mus musculus with 8 samples.

Results

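The 10 genes described here build or mark the blood-brain barrier: the junction proteins Cldn5, Ocln, Tjp1, Cdh5 and Pecam1, the vascular endothelial growth factor (VEGF) receptors Flt1 and Kdr, and the transporters Mfsd2a, Abcb1a and Slco1a4. They were chosen by name, and all 10 were found among the 32285 genes of a single-nucleus RNA-seq count table that holds 61949 nuclei. Brain hemispheres of 6-month-old C57BL6/J mice were sequenced as 8 libraries, 2 for each of 4 genotypes: WT mice, Cnp-/- mice, which carry a null allele of the myelin gene Cnp and develop defective myelin, 5xFAD mice, which carry a transgene that drives neuronal production of amyloid-β with familial Alzheimer's disease mutations, and Cnp-/- 5xFAD mice, which combine both. All 4 groups share strain, age and tissue, and whether a library pooled animals was not settled by the sources. For the Cnp crosses the study's reporting summary gives female mice, while its methods name both sexes for the work as a whole. Each nucleus carried one of 8 class names given by the authors, and the genes were followed in the 1667 nuclei named Endothelial and the 260 named Pericyte, against the other 6 classes and between genotypes.

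The blood-brain barrier is formed by endothelial cells that are sealed by tight junctions, take up few substances by vesicles and carry selective transporters, and pericytes on the outer wall of the capillary help to maintain it. Claudin-5 (Cldn5) and occludin (Ocln) span the membrane at the tight junction, and ZO-1 (Tjp1) ties them to actin. VE-cadherin (Cdh5) holds the adherens junction and PECAM-1 (Pecam1) lies at the lateral border of endothelial cells. VEGFR1 (Flt1) binds VEGF-A tightly and can act as a decoy, whereas VEGFR2 (Kdr) is the main signalling receptor. Mfsd2a carries lysophosphatidylcholine with docosahexaenoic acid and restrains transcytosis, Abcb1a encodes the efflux pump P-glycoprotein, and Slco1a4 encodes an organic anion transporter.

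Library depth ranged from 68905044 to 82399061 unique molecular identifiers (UMIs), in 6801 to 8824 nuclei per library. The Endothelial class contributed 643143 to 1401769 UMIs per library in 119 to 288 nuclei, with a median of 3598 UMIs per nucleus, and the Pericyte class 23002 to 103832 UMIs in 19 to 61 nuclei, with a median of 1434.5. Neurons were the deepest of the classes compared below, with a median of 9105 UMIs. The targeted gene bore out the labels: in mature oligodendrocytes (MOL), Cnp stood at 283 and 321 CPM (UMIs of the gene per 1000000 UMIs of the summed profile) in the WT libraries and 219 and 265 in the 5xFAD libraries, against 23.1 and 23.2 in Cnp-/- and 24.0 and 32.8 in Cnp-/- 5xFAD. Across libraries, 454 barcodes occurred more than once, among them those of 24 endothelial and 3 pericyte nuclei.

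The class name Endothelial fitted its markers, but the class was not uniform. Summed over 15 endothelial markers outside the 10 genes (among them Adgrl4, Emcn, Tie1, Tek and Ly6c1), its libraries held 6908 to 8836 CPM, and all 15 markers were detected. The authors' clusters split it into cluster 26 with 854 nuclei, cluster 28 with 743 and cluster 47 with 70. Cluster 28 also carried 6878 CPM of 11 pericyte markers (Pdgfrb, Rgs5, Vtn and others) against 2196 in cluster 26, at a median of 5955 UMIs per nucleus against 2228. No doublet caller was run, and whether nuclei of cluster 28 held transcripts of more than 1 cell was not tested. Cluster 26 carried 2208 CPM of 3 haemoglobin genes against 753 in cluster 28. The 6 neuronal markers summed to 658 CPM in cluster 28, 431 in cluster 47 and 124 in cluster 26. In cluster 47, 6 oligodendrocyte markers summed to 5363 CPM and 5 astrocyte markers to 3319 CPM, the 15 endothelial markers were at 1950 CPM against 7268 in cluster 28, and all 10 genes were below both other clusters, so that Flt1 was at 1755 CPM there against 6399 in cluster 26 and 4790 in cluster 28. In endothelial nuclei, the contrasts for Cnp loss, 5xFAD and their interaction were therefore repeated within clusters 26 and 28 and without cluster 47. The Pericyte class, which was a single cluster (42), held 12354 to 16980 CPM of pericyte markers and 502 to 1000 CPM of the endothelial markers per library.

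The promoters of Cldn5, Slco1a4 and Tjp1 are shown to set 2 genes that were high in endothelial nuclei and low in all other classes, Cldn5 and Slco1a4, beside Tjp1, which was present in every class. Each sequence is the 250 bases before the RefSeq start of the gene (GRCm38.p6, 5′ to 3′ on the gene's strand), at chr16:18776597-18776846 (plus strand) for Cldn5, chr6:141856221-141856470 (minus strand) for Slco1a4 and chr7:65371245-65371494 (minus strand) for Tjp1, whose RefSeq start lies inside the longer span of the annotated gene. Capitals mark matches on either strand to CCAAT, the letters of the CCAAT box, or to ACAATG, a SOX-like sequence.
Cldn5: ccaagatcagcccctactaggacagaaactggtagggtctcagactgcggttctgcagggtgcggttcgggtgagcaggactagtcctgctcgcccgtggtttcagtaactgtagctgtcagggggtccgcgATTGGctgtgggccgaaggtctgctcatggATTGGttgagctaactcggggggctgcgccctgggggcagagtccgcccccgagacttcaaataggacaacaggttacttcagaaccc
Slco1a4: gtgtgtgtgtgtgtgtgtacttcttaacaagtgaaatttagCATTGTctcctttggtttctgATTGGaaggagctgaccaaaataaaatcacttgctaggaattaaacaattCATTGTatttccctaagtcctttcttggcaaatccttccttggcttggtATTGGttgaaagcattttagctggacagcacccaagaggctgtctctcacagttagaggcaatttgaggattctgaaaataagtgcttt
Tjp1: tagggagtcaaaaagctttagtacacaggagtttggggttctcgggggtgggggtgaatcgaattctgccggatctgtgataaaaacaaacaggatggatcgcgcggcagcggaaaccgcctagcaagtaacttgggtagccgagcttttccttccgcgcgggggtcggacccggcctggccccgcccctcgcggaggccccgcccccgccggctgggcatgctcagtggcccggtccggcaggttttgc
Slco1a4 held 2 matches to ACAATG and 2 to CCAAT, Cldn5 held 2 to CCAAT, and Tjp1 held none of either. Flt1, Kdr and Abcb1a, which were also highest in endothelial nuclei, likewise held none of either in their windows. Mfsd2a held 1 match to CCAAT, and Ocln held 1 before only 1 of its RefSeq starts. The third sequence searched, the ETS-like CAGGAAG, was in none of the windows of the genes named here. Cdh5 and Pecam1 had no matching promoter entry and were not searched. Over 32851 RefSeq promoter windows of the same length, 33.8% held CCAAT, 10.7% ACAATG and 10.8% CAGGAAG, and matches to different motifs may overlap. CCAAT was added to the search after the sequences had been seen. Slco1a4 had 39.2% G and C and no CpG, lower than all but 10.3% of the windows, as against 59.6% and 12 CpGs in Cldn5 and 63.2% and 22 CpGs in Tjp1. Abcb1a was near Slco1a4, at 40.4% with no CpG, whereas Flt1 was at 70.4% with 23 CpGs. The Abcb1a window, at chr5:8566841-8567090 (plus strand), precedes a RefSeq start far upstream of the annotated gene, which begins at chr5:8660077.

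Across classes, all 10 genes had their highest mean level in endothelial nuclei, as the plot of levels by class shows. These levels are a description without a test, since the classes came from clusters built on the same counts. The classes were also named by marker genes, Flt1 and Cldn5 among them. All values in this and the next 3 paragraphs are mean CPM ± SD over the 8 libraries, and are compared within a gene only, since CPM does not correct for gene length. Among the junction genes, Cldn5 (ENSMUSG00000041378, chr16:18776847-18778262) stood at 1488 ± 85.7 in endothelial nuclei, at 65.1 ± 43.3 in pericytes and at 3.77 ± 2.37 in microglia, with no overlap between these 3 classes. In the remaining classes Cldn5 was nearly absent, with 81 UMIs in 45141 neurons, 2 in astrocytes, 1 in oligodendrocyte precursors (OPC) and 0 in both the newly formed (NFOL) and the mature oligodendrocytes. Ocln (ENSMUSG00000021638, chr13:100496507-100552718) fell from 286 ± 30.3 in endothelial nuclei to 12.3 ± 16.5 in pericytes, Cdh5 (ENSMUSG00000031871, chr8:104101625-104144511) from 214 ± 16.4 to 3.41 ± 4.31 in microglia, the class next to it, and Pecam1 (ENSMUSG00000020717, chr11:106654217-106750628) from 485 ± 37.2 to 27.95 ± 20.2, again in microglia. For these 3 genes the lower classes overlapped one another in their order.

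Tjp1 (ENSMUSG00000030516, chr7:65296165-65527781) was the exception among the junction genes. It stood at 1557 ± 142 in endothelial nuclei, 978 ± 309 in pericytes, 695 ± 91.3 in astrocytes, between 449 ± 68.3 and 495 ± 70.9 in the oligodendrocyte lineage and neurons, and 268 ± 89.8 in microglia. Each neighbour in this order overlapped the next, including the endothelial and pericyte libraries, and neurons alone held 269950 Tjp1 UMIs against 13379 in endothelial nuclei. Of the other 9 genes, Mfsd2a came closest to its endothelial level elsewhere, at 3.48 times below it in OPC.

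Of the VEGF receptors, Flt1 (ENSMUSG00000029648, chr5:147561604-147726011) was at 5129 ± 519 in endothelial nuclei, 443 ± 185 in pericytes and 114 ± 62.6 in microglia, and these 3 classes did not overlap. The other 5 classes had mean Flt1 levels of 2.14 to 14.2. Kdr (ENSMUSG00000062960, chr5:75932827-75978458) was at 269 ± 26.3 in endothelial nuclei and 20.0 ± 21.4 in pericytes, from 7 UMIs, and at no more than 2.04 in any other class. In pericytes, Flt1 was 11.6 times and Cldn5 22.8 times below the endothelial level, while the endothelial marker sum was at a median of 724 CPM there against 7858 in endothelial nuclei; the part that endothelial transcripts play in the pericyte values was not tested.

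Of the transporters, Slco1a4 (ENSMUSG00000030237, chr6:141805440-141856199) was at 3254 ± 272 in endothelial nuclei against 51.8 ± 69.0 in pericytes and 17.9 ± 12.8 in microglia, and Abcb1a (ENSMUSG00000040584, chr5:8660077-8748575) at 947 ± 81.5 against 26.6 ± 28.1 and 7.60 ± 4.77. Both belong to families with close copies in the genome, so that reads shared with a paralog could be lost or split. Mfsd2a (ENSMUSG00000028655, chr4:122946850-122961188) showed a second set of classes. After 171 ± 17.5 in endothelial nuclei, it was at 49.2 ± 14.4 in OPC, 25.2 ± 2.96 in NFOL and 24.3 ± 13.2 in astrocytes, then 7.84 ± 15.9 in pericytes from 2 UMIs, and 0.343 ± 0.478 in MOL. The endothelial and OPC libraries did not overlap, nor did those of OPC and NFOL, whereas NFOL and astrocytes did. The spread of the 10 genes over the 8 endothelial libraries was small, with a coefficient of variation between 5.76% for Cldn5 and 10.6% for Ocln.

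**Figure D1:**
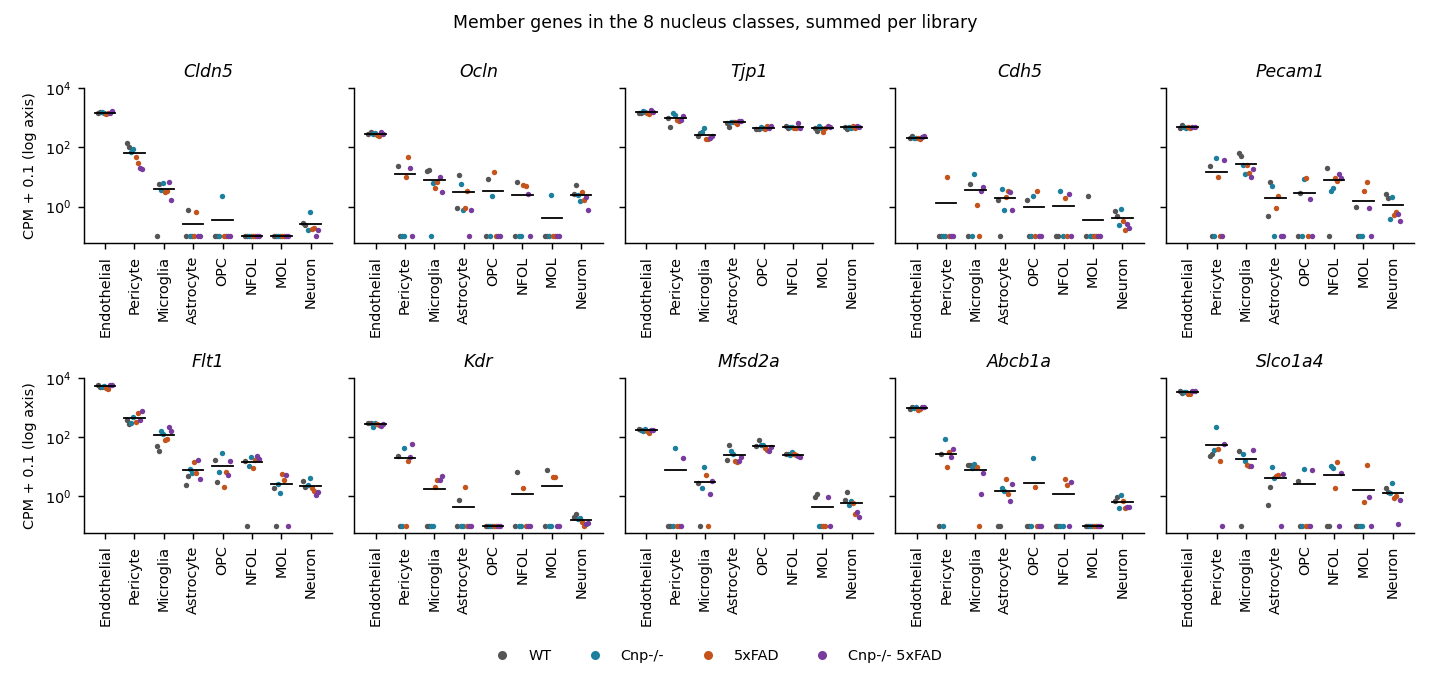
Level of each of the 10 genes in each of the 8 nucleus classes. Each point is 1 library in CPM plus 0.1 on a log axis, coloured by genotype, and the line is the mean over 8 libraries. All genes are highest in endothelial nuclei. Tjp1 is at 189 CPM or more in every library of every class, and Flt1 is above the remaining classes in pericytes and microglia.

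In single nuclei, most endothelial nuclei held several of the 10 genes at once. With each nucleus thinned to 1000 UMIs, which left out 42 shallower endothelial nuclei, the 1625 remaining had a median of 5 of the 10 genes, and 95.3% held at least 3. The share with at least 3 was 98.2% in cluster 26, 96.2% in cluster 28 and 52.2% in cluster 47. It was 3.35% of 209 pericyte nuclei, 0.430% of 1861 microglia and 0.0288% of 45124 neurons. After thinning, Flt1 was found in 96.4% and Slco1a4 in 92.1% of endothelial nuclei, Tjp1 in 78.6%, Cldn5 in 70.5%, Abcb1a in 60.7%, Pecam1 in 38.6% and the other 4 genes in 17.0% to 25.97%; without thinning, the 10 shares ran from 46.3% for Mfsd2a to 99.3% for Flt1. Neurons served as background for the genes other than Tjp1, and their own use of these genes was not tested. Thinned, 0.182% of neurons held Flt1, 0.226% Ocln, 0.135% Slco1a4 and 0.0222% Cldn5, but 36.2% held Tjp1. Flt1 was found in 32.5% and Tjp1 in 56.9% of thinned pericyte nuclei, and Flt1 in 10.5% of thinned microglia. The neuronal share does not cover endothelial transcripts in pericyte nuclei, where the endothelial markers themselves were present as given above.

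**Figure D2:**
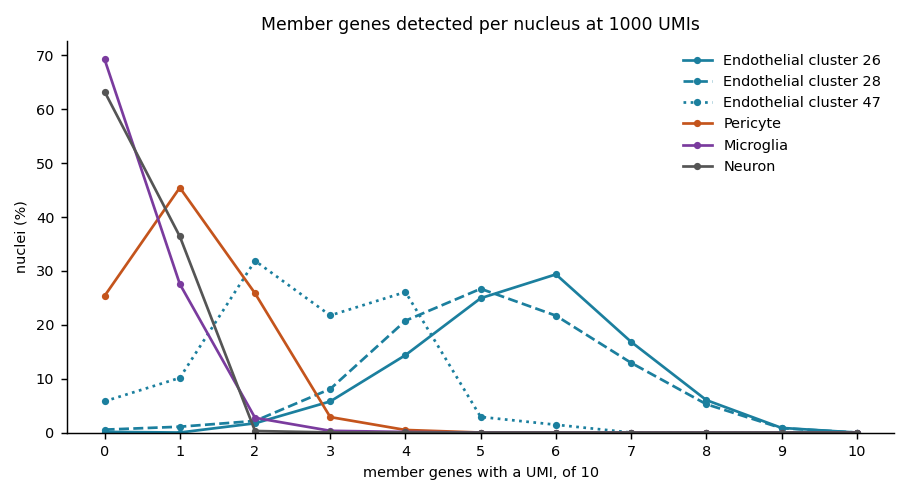
Number of the 10 genes with at least 1 UMI per nucleus (horizontal axis), as a percentage of the nuclei of each class or cluster (vertical axis), with every nucleus thinned to 1000 UMIs. Clusters 26 and 28 peak at 5 or 6 genes, cluster 47 at 2 to 4, pericytes at 1, and microglia and neurons at 0.

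The genes with the most similar profiles were named over the 64 class-by-library profiles, as Pearson's r of log2(CPM + 1), among genes with at least 100 UMIs in all; the points share libraries and classes, and r is given as a description. Nearest to Cldn5 were Cxcl12 (r = 0.97), Esam (0.96) and Ptprb (0.94), nearest to Flt1 Eng (0.96), Slc22a8 (0.94) and the pericyte marker Rgs5 (0.93), and nearest to Slco1a4 Ly6c1 (0.92), Ptprb (0.90) and Cxcl12 (0.90). Abcb1a lay closest to Klf2 (0.94), Ptprb (0.92) and Adgrf5 (0.92), Kdr to Ly6a (0.91), Klf2 (0.90) and Igf1r (0.89), Cdh5 to Myct1 (0.93), Srarp (0.93) and Tecrl (0.93), and Ocln to Cyyr1 (0.89), Sox17 (0.87) and Acvrl1 (0.86). For Pecam1, the leading genes were Srgn (0.88), Slfn5 (0.87) and Layn (0.86). The profiles of Tjp1 and Mfsd2a had other neighbours: Sptbn1 (0.90), Agrn (0.85) and Pcmtd1 (0.80) for Tjp1, and Tril (0.88), Alpl (0.85) and Rgcc (0.85) for Mfsd2a. Among the 10 genes themselves r ran from 0.38 between Cldn5 and Mfsd2a to 0.93 between Cldn5 and Flt1.

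Whether defective myelin or amyloid changed these genes in endothelial nuclei was asked of UMI counts summed per library. In the WT, Cnp-/-, 5xFAD and Cnp-/- 5xFAD libraries, in that order and with both replicates given, Flt1 stood at 5516 and 5038, 4901 and 5331, 4581 and 4305, and 5834 and 5528 CPM. Slco1a4 read 3452 and 3178, 3358 and 3212, 2829 and 2918, and 3565 and 3518 CPM. Both genes were lowest in the 5xFAD libraries, below all 6 others. For Tjp1 the values were 1503 and 1485, 1724 and 1573, 1439 and 1373, and 1794 and 1565 CPM, so that every library without CNP was above every library with it. Cldn5 was at 1474 and 1528, 1555 and 1442, 1355 and 1421, and 1497 and 1632 CPM, and its genotypes other than 5xFAD overlapped. Among the other 6 genes, the genotype means spanned 149 to 183 CPM for Mfsd2a, 201 to 230 for Cdh5, 251 to 305 for Ocln, 261 to 288 for Kdr, 468 to 508 for Pecam1 and 841 to 1000.3 for Abcb1a. Relative to the mean, WT Pecam1 and Cnp-/- Kdr were the most spread between replicates (508 ± 87.0 and 261 ± 51.8, SD, n = 2). In CPM, WT Abcb1a was the most spread of these 6 (976 ± 111).

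**Figure D3:**
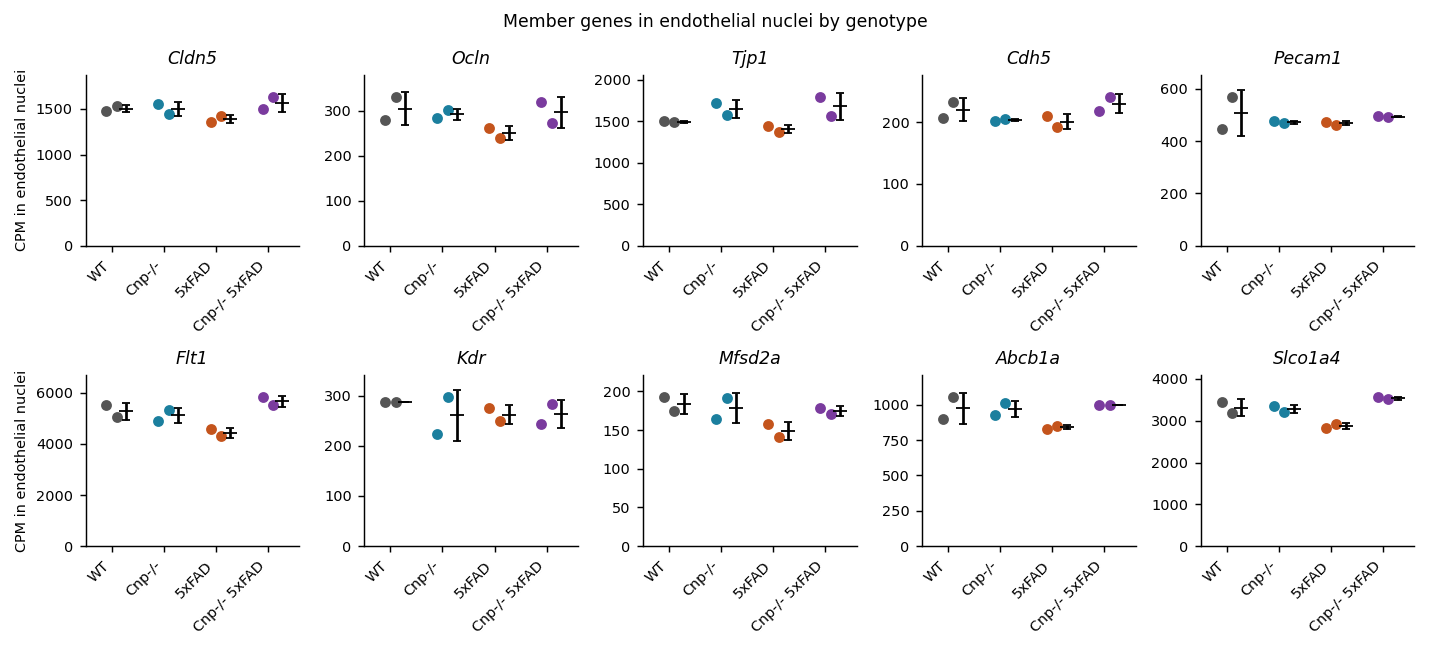
CPM of the 10 genes in endothelial nuclei by genotype. Points are libraries (2 per genotype), and the bar beside them is the mean ± SD. Flt1, Slco1a4, Tjp1, Cldn5, Ocln, Mfsd2a and Abcb1a are lower in both 5xFAD libraries than in the other 6 libraries, and no difference passes the test over all genes.

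None of the 10 genes passed the threshold for any contrast in endothelial nuclei by edgeR's quasi-likelihood test at an adjusted p under 0.05, nor by DESeq2. The contrasts were Cnp loss (both genotypes without CNP over both with it), 5xFAD (both with the transgene over both without) and the interaction (the 5xFAD effect on the Cnp-/- background minus that with CNP intact). Over 11754 genes tested, 0.0425% were called for Cnp loss, 0.0% for 5xFAD and 0.0% for the interaction; an unadjusted p under 0.05 was reached by 945, 614 and 690 genes, and DESeq2 called 42, 2 and 35. With Cnp loss, Tjp1 was 0.21 higher on the log2 scale (SE 0.0769, 95% interval 0.04 to 0.38, adjusted p = 0.503), Flt1 0.16 (SE 0.0631, adjusted p = 0.529) and Slco1a4 0.15 (SE 0.0616, adjusted p = 0.557), and these were the 3 of the 10 with an unadjusted p under 0.05, which 2.25% of all genes tested reached in the same direction. In cluster 26 alone they had 0.09, 0.06 and 0.07, with a median of -0.04 over the 10 genes, 3 of them above 0, and without nuclei above the 95th percentile of UMIs 0.15, 0.08 and 0.08, and under neither setting had any of the 10 an unadjusted p under 0.05. In cluster 28 alone they had 0.24, 0.19 and 0.17, with a median of 0.18 over the 10 genes and 9 of them above 0, and 4 had an unadjusted p under 0.05, these 3 and Abcb1a (0.21), with none called. With equal numbers of nuclei, 1 of the 10 genes had an unadjusted p under 0.05. Over all endothelial nuclei, the other 7 lay between -0.05 (Kdr) and 0.13 (Abcb1a). Tjp1 was the only gene of the 10 whose 4 libraries with Cnp loss lay above the other 4, which held for 1.75% of all genes tested.

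For 5xFAD, the log2 fold changes ran from -0.18 for Mfsd2a (SE 0.106, adjusted p = 0.908) to 0.02 for Cdh5, and no unadjusted p was under 0.05. The widest 95% interval, that of Kdr, reached from -0.33 to 0.20, and the narrowest, that of Slco1a4, from -0.20 to 0.08. No interval of the 10 went below -0.41 (Mfsd2a) or above 0.24 (Cdh5). The interaction was above 0 for all 10 genes, with a median of 0.27 against 0.02 over all genes tested, where 51.9% were above 0. Flt1 had the largest value, 0.41 (SE 0.126, 95% interval 0.12 to 0.69, adjusted p = 0.584), followed by Slco1a4 at 0.32 (SE 0.123, adjusted p = 0.773). These 2 had an unadjusted p under 0.05, as had 1.68% of all genes tested in the same direction. On leaving out 1 library, the median interaction ran from 0.16 (without WT replicate 2) to 0.34 (without Cnp-/- replicate 2), with 9 or 10 genes above 0.

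Single-genotype contrasts, which were added after the data had been seen, gave the parts of the interaction. Against WT, the 5xFAD log2 fold changes of the 10 genes were all below 0, with a median of -0.18 and a range from -0.32 (Mfsd2a) to -0.10 (Tjp1). On the Cnp-/- background they had a median of 0.05. Cnp-/- over WT gave a median of -0.04, with 2 of the 10 genes above 0, against 49.5% of all genes tested. In that contrast Flt1 stood at -0.04 (SE 0.0892), Slco1a4 at -0.008 (SE 0.0871) and Tjp1 at 0.15 (SE 0.109). Cnp-/- 5xFAD over 5xFAD gave values above 0 for all 10, with a median of 0.25, led by Flt1 at 0.37 (SE 0.0893, adjusted p = 0.150) and Slco1a4 at 0.32 (SE 0.0872, adjusted p = 0.211). Of all genes tested, 0.4% were called for this contrast, none of them higher. These contrasts share libraries and are not independent of one another. Both 5xFAD libraries were below both Cnp-/- 5xFAD libraries for 9 of the 10 genes, against 19.5% of all genes tested, and below all 6 other libraries for 7 of the 10, against 4.32%.

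Transcripts of some other cell types, the neuronal and pericyte ones, also set the 5xFAD libraries apart. The 6 neuronal markers, of which none was at 0, summed to 827 and 935 CPM in the endothelial nuclei of the 5xFAD libraries, against 571 and 199 in WT, 340 and 479 in Cnp-/- and 198 and 287 in Cnp-/- 5xFAD. The 15 endothelial markers summed to 6908 and 6922 CPM in 5xFAD and to 7645 to 8836 CPM in the other 6 libraries. The 11 pericyte markers were also lowest in 5xFAD, at 4651 and 4629 CPM against 4846 to 7582 CPM in the other 6. All 5 genes called for Cnp loss were lower and are abundant in neurons: Meg3 fell by 1.40 on the log2 scale (SE 0.139), Dpp6 by 1.65 (SE 0.188), Celf4 by 1.21 (SE 0.137), Pde1a by 1.39 (SE 0.154) and A830018L16Rik by 1.37 (SE 0.162), with adjusted p from 0.0254 to 0.0283, and their mean CPM in neurons was 8.09 to 9.46 times that in endothelial nuclei. Pde1a, whose libraries overlapped between 62.7 and 67.1 CPM, fell outside the rule for named genes and is listed after its values were seen. When libraries were scaled to the 15 endothelial markers instead of by TMM, an alternative that like the cluster subsets was chosen after seeing the data, the interaction of Flt1 went to 0.10 (SE 0.204) and that of Slco1a4 to 0.01, the median of the 10 genes was -0.04, and only those 2 were above 0. This scaling removes any change that the endothelial genes share, so that a median near 0 is in part built into it. Under the same scaling the median for Cnp loss was -0.0006 and Tjp1 stood at 0.11 (SE 0.108). In cluster 28 alone the median interaction was 0.28 and Flt1 stood at 0.43 (adjusted p = 0.336), whereas in cluster 26 alone the median was 0.10 and Flt1 stood at 0.26 (SE 0.186, adjusted p = 1.00). Leaving out cluster 47 gave a median interaction of 0.26, and leaving out nuclei above the 95th percentile of UMIs 0.13. Cluster 47 made up 1.68% to 7.29% of a library's endothelial nuclei, with the highest shares in the 5xFAD libraries. Without it, the median for 5xFAD went from -0.06 to -0.02, with 3 of the 10 genes above 0 instead of 1. The part that neuronal and pericyte transcripts play in these values was not tested.

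**Figure D4:**
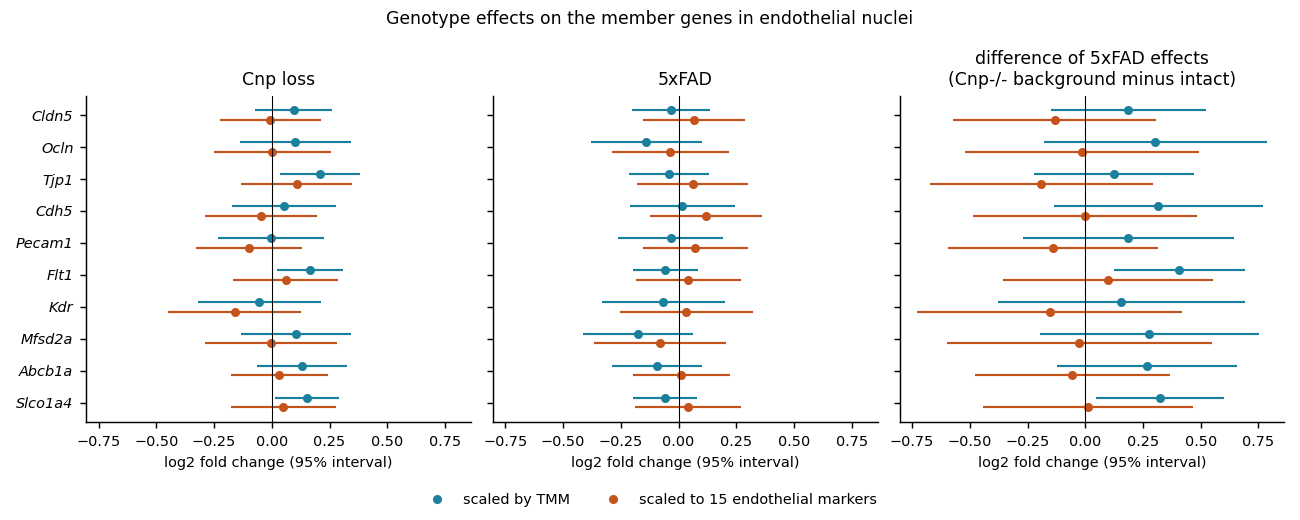
Log2 fold changes of the 10 genes in endothelial nuclei (horizontal axis, points) with 95% intervals (lines) for Cnp loss, 5xFAD and the interaction, scaled by TMM over all genes or to the sum of 15 endothelial markers. The TMM interaction is above 0 for all 10 genes, and under the marker scaling 8 of the 10 are below 0.

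The other genes of the barrier gave the same count, with no member of 10 gene lists called in endothelial nuclei by edgeR for any of the 3 contrasts. Of 19 junction genes, 14 passed the filter on low counts and had a median log2 fold change of 0.13 for Cnp loss and 0.14 for the interaction. The most abundant were Ptprb, a phosphatase that acts on VE-cadherin and TIE2 (0.26 for Cnp loss, SE 0.0728, adjusted p = 0.354), and β-catenin, Ctnnb1 (0.16, adjusted p = 0.749). Of 22 transporters and receptors, 20 were tested, with medians of 0.10, -0.03 and 0.21 for Cnp loss, 5xFAD and the interaction; Slco1c1, a thyroxine carrier, had 0.08, 0.06 and 0.16, and Slc6a6, the taurine transporter, 0.10, 0.16 and 0.11. In VEGF and angiopoietin signalling 13 of 17 were tested with medians of -0.03, 0.02 and -0.08, and the angiopoietin receptor Tek and the VEGF co-receptor Nrp1 had -0.03 to 0.13 for Cnp loss. In the Wnt and β-catenin programme, which induces the barrier, 17 of 20 were tested with medians of 0.09, -0.01 and 0.13. Its most abundant genes, Lef1 and Apcdd1, had 0.20 (SE 0.117) and 0.17 (SE 0.101) for Cnp loss.

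Genes of vesicle transport (8 of 9 tested, medians 0.01, -0.05 and 0.25) and of leukocyte adhesion (5 of 13 tested, medians 0.16, -0.37 and 0.04) were likewise not called. Caveolin, Cav1, had 0.17 for Cnp loss (SE 0.150) and Cavin1 -0.13, the NF-κB inhibitor Nfkbia had -0.37 for 5xFAD (SE 0.220), and von Willebrand factor, Vwf, had -0.85 for the interaction (SE 0.252, adjusted p = 0.551). By vessel segment, the medians for Cnp loss were -0.37 over 9 arterial genes, 0.12 over 7 capillary genes and 0.15 over 6 venous genes. The most abundant were Mgp and Alpl (-0.74 and 0.04), Spock2 and Cxcl12 (0.12 and 0.23), and Nr2f2 and Vwf (0.09 and 0.33), none with an adjusted p under 0.526. All 15 endothelial transcription factors were tested, with medians of 0.17, -0.06 and 0.19; Ebf1 and Mecom had 0.06 and 0.19 for Cnp loss. The median over all genes tested was 0.01 for Cnp loss, 0.004 for 5xFAD and 0.02 for the interaction.

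In pericyte nuclei, 1253 genes passed the filter and 0.0% were called for each of the 3 contrasts by edgeR, with an unadjusted p under 0.05 for 84, 53 and 85 genes. Among the 10 genes, only Flt1 and Tjp1 had enough UMIs to be tested. Flt1 stood at 367 and 267 CPM in WT, 287 and 478 in Cnp-/-, 318 and 669 in 5xFAD, and 388 and 769 in Cnp-/- 5xFAD, from 8 to 44 UMIs per library. Its genotypes overlapped, and the log2 fold change with 5xFAD was 0.54 (SE 0.338, 95% interval -0.16 to 1.24, adjusted p = 0.949). Tjp1 was at 987 and 507 CPM in WT, 1505 and 1217 in Cnp-/-, 857 and 760 in 5xFAD, and 837 and 1154 in Cnp-/- 5xFAD, with 0.55 for Cnp loss (SE 0.231, adjusted p = 0.712). In pericyte nuclei, the 6 neuronal markers summed to 436 and 1040 CPM in the WT libraries and to 0 to 143 in the others. The part of neuronal transcripts in the pericyte values was not tested.

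Among the 6 other classes, 1 of 63 tests of the 10 genes was called: Flt1 was higher in microglia with Cnp loss, by 1.46 on the log2 scale (SE 0.217, 95% interval 0.97 to 1.95, adjusted p = 0.0278, edgeR). Of 9621 genes tested in microglia, 0.904% were called for this contrast and 0.852% were called higher. The libraries read 51.5 and 34.9 CPM in WT, 78.9 and 86.8 in 5xFAD, 161 and 125 in Cnp-/- and 219 and 158 in Cnp-/- 5xFAD. All 4 libraries with Cnp loss were above the other 4, as held for 3.43% of the genes tested in microglia, and both 5xFAD libraries were above both WT libraries, as held for 22.9% of those genes, with a 5xFAD log2 fold change of 0.61 that was not called (SE 0.218, adjusted p = 0.424), when 0.229% of all genes were. The interaction was -0.50 (SE 0.437, adjusted p = 0.896). It moved with the nuclei used, to 1.07 with equal numbers of nuclei (SE 0.718, adjusted p = 0.809), -1.11 without nuclei above the 95th percentile of UMIs (SE 0.455, adjusted p = 0.761) and -4.86 in cluster 10, the main microglia cluster (SE 0.975, adjusted p = 0.205), where the fitted value again depends on WT libraries with 0 and 1 UMI, and it was called under none of these.

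The microglia class held cluster 10 with 1859 nuclei, cluster 39 with 383 nuclei, 8157 CPM of oligodendrocyte markers and 1669 CPM of pericyte markers, and cluster 43 with 230 nuclei and 6357 CPM of macrophage markers. In cluster 10 alone, which was examined after the result had been seen, Flt1 had 0 UMIs in 162 nuclei and 1 UMI in 49 nuclei of the WT libraries, 55 in 398 and 41 in 294 nuclei of 5xFAD, 61 in 205 and 31 in 112 nuclei of Cnp-/-, and 132 in 337 and 56 in 302 nuclei of Cnp-/- 5xFAD. This corresponds to 0 and 12.5 CPM in WT, where 3 UMIs, a limit for counting error only, would be 13.5 and 37.5 CPM, to 99.9 and 101 in 5xFAD, 242 and 199 in Cnp-/-, and 251 and 154 in Cnp-/- 5xFAD. The call remained within cluster 10 (log2 fold change 3.45, SE 0.451, adjusted p = 0.0174), a fitted value that depends on the prior count because WT was at or under 1 UMI per library there, and without cluster 43 (log2 fold change 1.56, adjusted p = 0.0179). It was lost when every library was cut to the same number of nuclei (1.06, SE 0.355, adjusted p = 0.276), and on leaving out either 5xFAD library (1.43 and 1.49, adjusted p = 0.135 and 0.116), either Cnp-/- 5xFAD library (1.34 and 1.58, adjusted p = 0.0761 and 0.0718) or replicate 1 of Cnp-/- (1.35, adjusted p = 0.109).

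**Figure D5:**
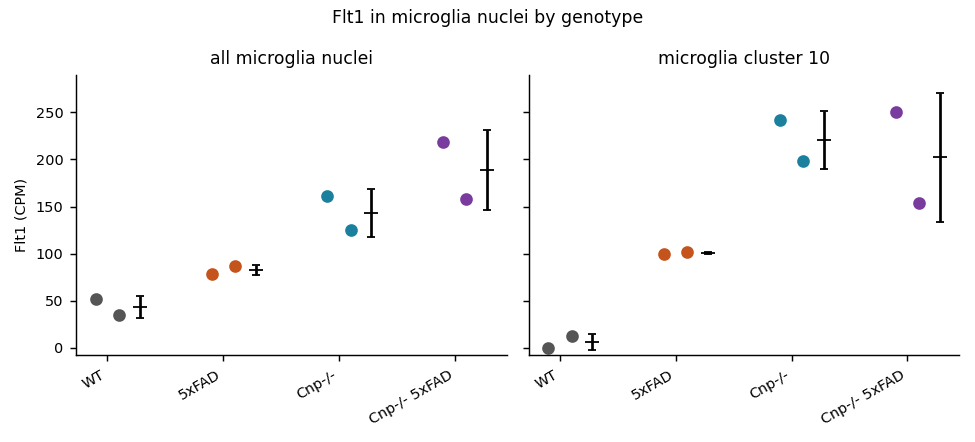
Flt1 in microglia nuclei by genotype, in CPM on the vertical axis, over all microglia nuclei (left) and cluster 10 only (right). Points are libraries and bars the mean ± SD of 2. In both panels the order of the genotypes has WT lowest, then 5xFAD, and the 4 libraries with Cnp loss are highest, between 125 and 251 CPM.

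The levels of other transcripts in the same microglia libraries are given beside this result. The 15 endothelial markers summed to 193 and 87.3 CPM in WT, 166 and 155 in 5xFAD, 150 and 209 in Cnp-/- and 182 and 158 in Cnp-/- 5xFAD; none of the 15 was at 0. Per 100 Flt1 UMIs there were 14.1 of Slco1a4 and 2.90 of Cldn5 in microglia, as against 63.4 and 29.0 in endothelial nuclei. Abcb1a (5.11 against 18.4), Kdr (1.70 against 5.25), Cdh5 (2.04 against 4.14) and Mfsd2a (2.21 against 3.34) were also lower in microglia. Ocln was nearly level (5.11 against 5.51), and Pecam1 (18.2 against 9.35) and Tjp1 (191 against 30.3) were higher. Of 349 microglia nuclei with Flt1, 28.4% also held a UMI of 1 of 17 endothelial genes (the 15 markers, Cldn5 and Slco1a4), against 22.8% of the microglia without Flt1, with no thinning. The libraries differed in direction, since in both Cnp-/- libraries the share was lower in nuclei with Flt1, at 22.6% against 24.8% and 22.7% against 33.3%, and in the other 6 it was higher. Pericyte markers in microglia ranged from 40.7 to 627 CPM in WT, 464 to 509 in 5xFAD, 669 to 848 in Cnp-/- and 424 to 779 in Cnp-/- 5xFAD. The 6 oligodendrocyte markers were lowest in WT, at 972 to 1495 CPM, against 2264 to 2328 in 5xFAD, 2531 to 3628 in Cnp-/- 5xFAD and 2990 to 5520 in Cnp-/-, and the 4 macrophage markers were highest in WT, at 1318 to 3538 CPM against 327 to 1090 in the other libraries. Their part in the result was not tested. The other members tested in microglia, Tjp1, Pecam1 and Slco1a4, had adjusted p of 0.299, 0.415 and 0.799 for Cnp loss.

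In neurons, 9 of the 10 passed the filter for the depth of that class. For 5xFAD the log2 fold changes of the 8 other than Tjp1 were below 0, from -0.60 for Ocln to -2.02 for Cldn5, at mean levels of 0.150 to 2.35 CPM, and none was called by edgeR, whereas DESeq2 called Flt1 (-1.07, adjusted p = 0.0250) and Pecam1 (-1.95, adjusted p = 0.0347) among the 1.63% of all genes tested that it called lower. Tjp1, which neurons use, had 0.09 (SE 0.0853). In the same neuron libraries, the pericyte markers summed to 12.9 to 18.8 CPM with the transgene and 18.4 to 31.1 without it. The OPC markers summed to 9.95 to 20.5 and 20.3 to 30.4 CPM. The 15 endothelial markers were not lower with the transgene, at 45.2 to 70.7 against 44.0 to 55.5 CPM. The part of such transcripts in the neuronal values was not tested. Tjp1 had a positive log2 fold change with Cnp loss in each of the 8 classes and was called in none. Beside 0.21 in endothelial nuclei and 0.55 in pericytes, it stood at 0.43 in microglia (SE 0.154, adjusted p = 0.299), 0.39 in MOL (SE 0.124, adjusted p = 0.244), 0.26 in astrocytes (SE 0.103, adjusted p = 0.912), 0.21 in NFOL, 0.15 in neurons and 0.12 in OPC, and the classes come from the same libraries. For Cnp loss, 0.765% of all genes tested were called in MOL, 1.6% in NFOL, 0.0185% in neurons and 0.0% in OPC and astrocytes. Mfsd2a in OPC read 49.6 and 79.9 CPM in WT, 53.7 and 52.4 in Cnp-/-, 41.6 and 35.6 in 5xFAD and 34.4 and 46.3 in Cnp-/- 5xFAD. All 4 libraries with the transgene were below the other 4, as held for 1.26% of the genes tested in OPC, with a log2 fold change of -0.55 (SE 0.209, adjusted p = 0.993).

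The share of nuclei in each vascular class was compared last, by exact two-sided permutation tests over the 8 libraries, in which the smallest possible p is 0.0286. Pericytes made up 0.590% ± 0.173 of nuclei with the 5xFAD transgene (SD, n = 4) and 0.261% ± 0.0402 without it (n = 4), a difference of 0.329 percentage points with all 4 libraries above the other 4 (exact p = 0.0286, 0.114 after adjustment over the 4 share tests). Over non-neuronal nuclei alone the difference was 0.721 percentage points (exact p = 0.0571). With Cnp loss, pericytes were at 0.362% ± 0.151 of all nuclei against 0.488% ± 0.265 (exact p = 0.457). Endothelial nuclei made up 1.75% to 3.41% of a library. With the transgene they were at 2.87% ± 0.373 against 2.45% ± 0.577 (exact p = 0.286), a direction that turned over non-neuronal nuclei alone, to -1.09 percentage points (exact p = 0.571), and with Cnp loss at 2.93% ± 0.434 against 2.40% ± 0.465 (exact p = 0.171). Such shares depend on how nuclei of each class survive isolation, and the number of vessels was not measured.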

How the data were processed

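The authors aligned single-nucleus reads (10x Genomics 3′ assay) with Cell Ranger (version 6.1.2) to mm10, removed ambient transcripts with CellBender, filtered nuclei and named clusters by marker genes; doublet treatment and whether introns were counted are not given in the sources used here. The deposited table holds raw UMI counts per gene and nucleus, and the deposited metadata each nucleus's total counts, class and cluster. The members and gene lists were chosen with earlier results of these data known.

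Counts were summed per library and class. Sums were tested with edgeR (4.0.16; TMM scaling, filterByExpr, quasi-likelihood F-test, Benjamini-Hochberg adjustment over all genes tested, threshold 0.05), with 1 coefficient per genotype; SE is the absolute log2 fold change over the square root of F. DESeq2 (1.42.0) was an alternative. CPM is the count over the profile's total times 1000000. The method was tested on simulated counts. Named list genes were the 2 most abundant of each list beside any called, and similar genes the 3 with the highest r per member. The study's reporting summary gives pools of 2 animals per single-cell replicate, but its methods state pooling for another dataset and not for these hemispheres, so p-values measure the spread between these libraries, whatever animals each holds. Alternatives were another normalization, no filter, a replicate block, subsets of nuclei and leaving out each library.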

Additional observations from a re-analysis of the deposited data

How the results depend on the processing

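No call on any of the 10 genes in endothelial or pericyte nuclei arose under any alternative, and 599 of 660 alternative values of these genes kept their sign. The other 61 changed sign, with log2 values as follows, and the cause was not tested. Within cluster 26, the sign changed for Cnp loss of Cldn5 (-0.057), Ocln (-0.17), Cdh5 (-0.022), Mfsd2a (-0.079), Abcb1a (-0.031) and for 5xFAD of Cldn5 (0.017), Ocln (0.073), Kdr (3.7e-06), Slco1a4 (0.064) and for the interaction of Kdr (-0.40). Scaled to the 15 endothelial markers, the sign changed for Cnp loss of Cldn5 (-0.0064), Cdh5 (-0.049), Mfsd2a (-0.0039) and for 5xFAD of Cldn5 (0.067), Tjp1 (0.061), Pecam1 (0.072), Flt1 (0.042), Kdr (0.034), Abcb1a (0.012), Slco1a4 (0.041) and for the interaction of Cldn5 (-0.13), Ocln (-0.014), Tjp1 (-0.19), Cdh5 (-0.0020), Pecam1 (-0.14), Kdr (-0.15), Mfsd2a (-0.025), Abcb1a (-0.056). Without nuclei above the 95th percentile of UMIs, the sign changed for 5xFAD of Cldn5 (0.0038), Tjp1 (0.0012) and for Cnp loss of Cdh5 (-0.052). Without cluster 47, the sign changed for 5xFAD of Cldn5 (0.014), Pecam1 (0.0018) and for Cnp loss of Pecam1 (0.0057). With equal numbers of nuclei, the sign changed for 5xFAD of Cdh5 (-0.044) and for Cnp loss of Kdr (0.016). Within cluster 28, the sign changed for Cnp loss of Pecam1 (0.022) and for 5xFAD of Pecam1 (0.027). With nuclei of at least 1000 UMIs, the sign changed for the interaction of Flt1 in pericytes (-0.21). Leaving out 1 library at a time changed a sign for Tjp1 5xFAD (-0.092 to 0.0050), Cdh5 5xFAD (-0.040 to 0.050), Pecam1 Cnp loss (-0.092 to 0.10), Pecam1 5xFAD (-0.13 to 0.048), Pecam1 interaction (-0.0067 to 0.38), Kdr Cnp loss (-0.16 to 0.039), Kdr 5xFAD (-0.16 to 0.044), Kdr interaction (-0.027 to 0.39), Tjp1 in pericytes 5xFAD (-0.38 to 0.093), Flt1 in pericytes Cnp loss (-0.060 to 0.53), Flt1 in pericytes interaction (-0.47 to 0.70).

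Counts of endothelial genes called moved as follows. For Cnp loss (5) they were 458 with no filter on low counts, 42 by DESeq2, 2 with equal numbers of nuclei, 0 without nuclei above the 95th percentile of UMIs, 0 within cluster 26, 41 within cluster 28, 16 without cluster 47, and 0 to 97 on leaving out 1 library (97 without WT replicate 2, 13 without WT replicate 1 and 0 or 1 without any of the other 6). For 5xFAD (0) they were 135 with no filter, 2 by DESeq2, and 0 to 142 on leaving out 1 library (142 without WT replicate 1). For the interaction (0) they were 297 with no filter, 1 with the replicate block, 35 by DESeq2, 36 with equal numbers of nuclei, 16 within cluster 28, 24 without cluster 47, 4 with marker scaling, and 0 to 112 on leaving out 1 library (112 without WT replicate 1). In pericytes, Cnp loss (0) gave 9 with no filter, 9 with the replicate block, 1 with nuclei of at least 1000 UMIs and 0 to 23 on leaving out 1 library (23 without Cnp-/- 5xFAD replicate 1), 5xFAD (0) gave 3 with no filter, and the interaction (0) gave 15, 6, 1 and 0 to 28 under the same settings (28 without Cnp-/- 5xFAD replicate 2). Calls of the 10 genes in other classes (1) were 3 by DESeq2, 0 with equal numbers of nuclei and 0 to 1 on leaving out 1 library. Flt1 in microglia with Cnp loss had 1.06 with equal numbers of nuclei, 3.45 within cluster 10 and 1.34 to 1.68 on leaving out 1 library, and its call held with the replicate block (adjusted p = 0.0369). Over non-neuronal nuclei, the endothelial share went to -1.09 percentage points with 5xFAD (exact p = 0.571), and the pericyte share to 0.721 (exact p = 0.0571). With relabelling within replicate numbers as a block, the pericyte difference of 0.329 had an exact p of 0.0556, the smallest that its 36 relabellings allow, and leaving out 1 library gave 0.252 to 0.392. Mean levels over nuclei instead of summed counts were 540 CPM for Pecam1 and 3577 CPM for Slco1a4. Same-numbered libraries of different genotypes did not deviate together (correlations of -0.06 to 0.10 across genes). With 2 libraries per genotype and noise in the counts, this cannot decide whether the numbers pair them. The replicate block changed no call of the 10 genes. In pericytes, 8 of the 10 genes did not pass the filter on low counts and were not tested.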
